A study of Bos taurus with 9 samples.

Results

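Complex I, the NADH:ubiquinone oxidoreductase of the inner mitochondrial membrane, was described through the nuclear genes whose bovine symbol begins with NDUF. The rule took every gene ID of the expression table that a RefSeq gene table pairs with such a symbol. It found 47 of 17852 genes, of which 39 are named as subunits and 8, named NDUFAF, as assembly factors. The 39 include NDUFA4, now counted as a subunit of complex IV, and its paralog NDUFA4L2, in all subunit counts, sums and medians below. All 47 passed the filter on low counts. RNA came from bovine oocytes at metaphase II, in 3 libraries each of oocytes given microplastics together with taurine (Tau), oocytes given microplastics (MPs) and control oocytes (Con). The labels give every library as female germ cells with total RNA extracted by TRIzol, state no dose, duration, number of oocytes or animals, and do not tell whether each library had its own donors or culture. The p-values therefore measure the spread between these libraries, which may be technical.

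Complex I passes electrons from NADH to ubiquinone and pumps protons while it does so. Its matrix arm holds the flavin, the iron-sulfur clusters and the ubiquinone site, and its membrane arm holds the pumps. The conserved core is encoded in part by the nucleus and in part by mitochondrial DNA, nuclear accessory subunits surround that core, and assembly factors help to build the enzyme without staying in it. A metaphase II oocyte has stopped transcribing and lives on stored maternal RNA, and it depends on its mitochondria for energy. The mitochondrially encoded core subunits of the ND family have no row in the deposited counts and so were not analysed here.

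Libraries held 21.17 to 22.74 M estimated reads. TMM factors, which edgeR uses to scale libraries to each other, were 0.841 to 0.958 in Tau, 1.214 to 1.253 in MPs and 0.835 to 0.972 in Con, so scaling bears on every difference given below. Tau 3 correlated best with Con 2 (r = 0.977 over all tested genes, log2 CPM) and Con 3 with Tau 1 and Tau 2 (0.976 each), across their labels. All 15 oocyte markers of a fixed list were tested, with summed levels of 83570 to 110300 CPM in Tau, 39980 to 48180 CPM in MPs and 92030 to 121500 CPM in Con. BTG4 held the largest part of these sums, at 46480 to 63130 CPM in Tau, 16760 to 23020 CPM in MPs and 48650 to 66080 CPM in Con. In MPs against Con 7 of the 15 were called lower and 2 higher, beside 14.7% and 9.68% of all tested genes. Of 17 cumulus and granulosa markers 16 had a row, with sums of 516.6 to 568.8 CPM in Tau, 418.2 to 518.5 CPM in MPs and 510.6 to 611.3 CPM in Con. Of the 13 tested, 5 were called lower and 0 higher in MPs than in Con by edgeR, beside the same shares. In Tau 4 were called higher than in MPs, beside 10.1% of all tested genes. STAR, which brings cholesterol into mitochondria, led at 222.9 to 319.4 CPM in Tau, 271.7 to 371.0 CPM in MPs and 226.8 to 382.2 CPM in Con, while FSHR, the receptor for follicle-stimulating hormone, stayed under 3 reads in every library. In such bulk RNA, fewer cells of a type and less RNA per cell cannot be told apart, and the part of these markers in the results was not tested.

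Subunit genes differed widely in level per transcript length. On the authors' deposited TPM, NDUFB1 and NDUFB4, small subunits of the membrane arm, led. NDUFB1 averaged 3258 ± 670.7 TPM in Tau, 1463 ± 159.7 TPM in MPs and 3293 ± 741.6 TPM in Con (SD, n = 3). NDUFB4 averaged 2222 ± 303.0 TPM in Tau, 1649 ± 518.2 TPM in MPs and 2303 ± 579.4 TPM in Con (SD, n = 3). At the low end stood NDUFV1, the flavin-binding subunit at which NADH is oxidised, at 1.83 ± 0.879 TPM in Tau, 2.31 ± 0.403 TPM in MPs and 2.00 ± 1.54 TPM in Con (SD, n = 3), which rested on 14 to 88 reads a library. The median subunit was at 64.5 TPM in Tau, 49.5 TPM in MPs and 104 TPM in Con. Summed over the 39 subunit genes, TPM came to 12910, 16370 and 13300 in the Tau libraries, 12370, 10310 and 10000 in the MPs libraries and 14950, 16610 and 13480 in the Con libraries. Every MPs library was below every Tau and Con library on this sum. The same held for accessory genes of the membrane arm, at 6641 to 8795 TPM in MPs, 9742 to 12270 TPM in Tau and 10050 to 12620 TPM in Con. Sums of the matrix arm accessory genes overlapped between the groups. The core sum went the other way in TPM, at 289.2 to 295.6 TPM in MPs, 196.5 to 241 TPM in Tau and 209.3 to 235 TPM in Con. TPM carry no TMM scaling, so the direction of a sum between groups holds on this scale only. With TMM scaling the median log2 fold change of the core genes in MPs minus Con was negative, at -0.34. Levels per length are least certain for the shortest transcripts, since the effective length that the deposited counts and FPKM imply is 64 nt for NDUFB1.

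**Figure D1:**
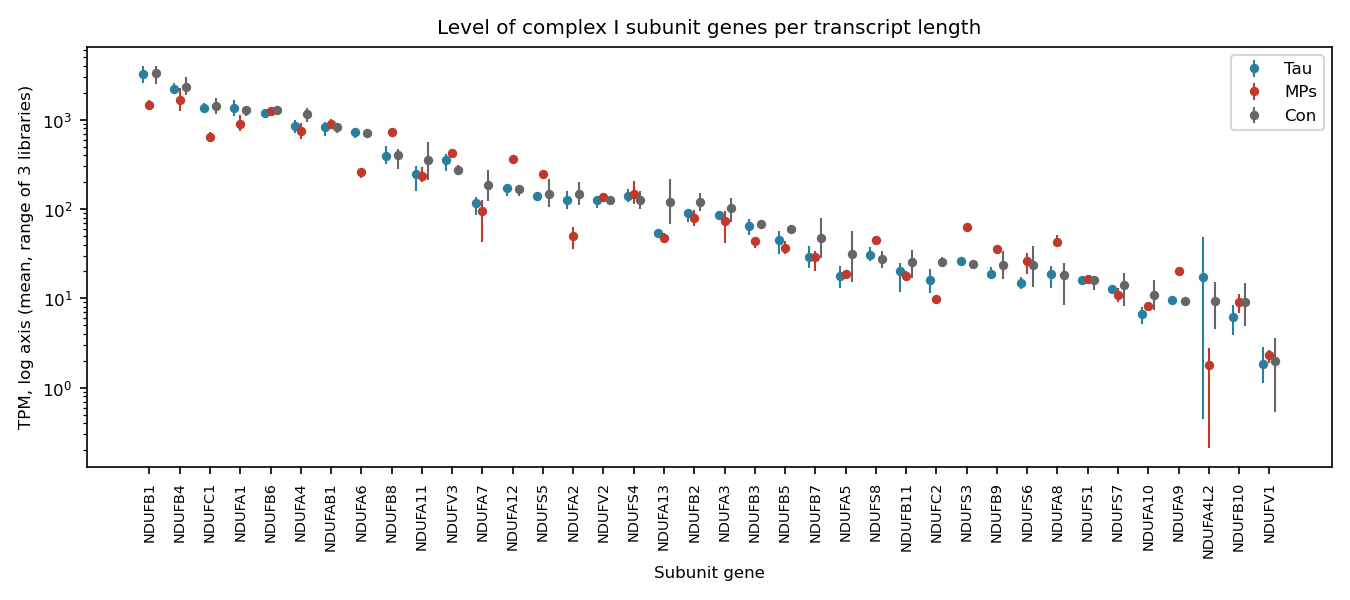
Level of 38 complex I subunit genes in TPM on a log axis, ordered by their mean in Con; points are means of Tau, MPs and Con and bars run from the lowest to the highest of 3 libraries. NDUFB1 leads in Tau and Con, at a mean of 3258 TPM in Tau, 1463 TPM in MPs and 3293 TPM in Con, and NDUFV1 is the lowest in Tau and Con, at 1.83 TPM in Tau and 2.00 TPM in Con.

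Oocytes given microplastics held relatively less RNA of 22 of the 39 NDUF genes named as subunits than control oocytes, NDUFA4 of complex IV among the 22. In edgeR's quasi-likelihood test with Benjamini-Hochberg adjustment over 13206 genes, 22 of 39 subunit genes were called lower in MPs than in Con at an adjusted p under 0.05, 1 was called higher and 16 were not called, while over all genes tested 14.7% were called lower and 9.68% higher. The median log2 fold change of the subunit genes was -1.05, against 0.04 over all genes tested. The MPs and Con libraries did not overlap for 25 subunit genes, lower in MPs for 22 and higher for 3, where 22.5% of all tested genes lay apart on the lower side and 22.4% on the higher side. These 22 are not the same as the 22 called. NDUFA3 and NDUFA11 were called lower though their libraries overlapped, and NDUFV2 and NDUFA4L2 lay apart without a call.

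Of the 7 nuclear core subunits, NDUFS1 and NDUFS7 were called lower in MPs than in Con, NDUFS3 was called higher and 4 were not called, with a median log2 fold change of -0.34. Over all genes tested 14.7% were called lower and 9.68% higher, and a count among so few genes says little about the core. NDUFS3, a scaffold of the module that holds the ubiquinone site, was at 17.1, 17.6 and 16.3 CPM in Tau, 30.2, 27.6 and 26.9 CPM in MPs and 17.8, 16.9 and 15.6 CPM in Con. All 3 MPs libraries stood above the other 6, and the log2 fold change of MPs minus Con was 0.75 ± 0.18 (SE; edgeR adjusted p = 0.0113). NDUFS1, the largest core subunit, which carries iron-sulfur clusters next to the flavin, was at 47.0, 44.0 and 55.0 CPM in Tau, 35.9, 31.9 and 35.1 CPM in MPs and 61.3, 42.4 and 50.3 CPM in Con. Here the MPs libraries were the 3 lowest, with a log2 fold change of -0.58 ± 0.18 (SE; edgeR adjusted p = 0.0386). NDUFS7, which lines the ubiquinone site, was at 6.56, 6.27 and 6.46 CPM in Tau, 4.45, 3.88 and 3.01 CPM in MPs and 11.1, 4.54 and 6.96 CPM in Con, with MPs again lowest and Con 1 highest, and its log2 fold change was -0.99 ± 0.32 (SE; edgeR adjusted p = 0.0425).

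The calls of both lower core genes did not hold with single libraries left out. NDUFS1 lost its call without Con 1 (log2 fold change -0.44), Con 3 (-0.58), MPs 1 (-0.60), MPs 2 (-0.52), MPs 3 (-0.58) or Tau 2 (-0.59), and NDUFS7 lost it without Con 1 (-0.61), MPs 1 (-1.11), MPs 2 (-1.0), MPs 3 (-0.84) or Tau 2 (-1.0). With scaling by library size only both calls were lost, at -0.10 in NDUFS1 and -0.51 in NDUFS7. In TPM, NDUFS1 was at 15.9 ± 0.973 TPM in Tau, 16.3 ± 1.59 TPM in MPs and 16 ± 2.94 TPM in Con (SD, n = 3), with groups that overlapped. NDUFS3 kept its call in each of 20 other fits (other scalings, filters, tests, blocks and libraries left out).

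NDUFV2, NDUFS8 and NDUFV1 were among the core genes that were not called. NDUFV2, an iron-sulfur protein beside the flavin subunit, was at 85.3, 113.5 and 129.3 CPM in Tau, 79.0, 86.8 and 75.7 CPM in MPs and 116.2, 130.2 and 99.5 CPM in Con, with every MPs library below every Con library but not below every Tau library. NDUFS8, an iron-sulfur subunit of the ubiquinone module, was at 13.3, 19.2 and 16.3 CPM in Tau, 15.2, 17.9 and 16.2 CPM in MPs and 13.1, 16.3 and 16.5 CPM in Con, and the groups overlapped throughout. NDUFV1 was at 1.38, 3.47 and 2.08 CPM in Tau, 1.62, 2.43 and 2.02 CPM in MPs and 2.72, 0.740 and 4.20 CPM in Con, the lowest of the core on this scale too. Log2 fold changes of MPs minus Con in these 3 genes were -0.52 in NDUFV2, -0.34 in NDUFV1 and 0.10 in NDUFS8.

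Accessory subunits of the matrix arm divided into genes called lower and genes that were not called. Of 10 such genes 4 were called lower, NDUFA2, NDUFA5, NDUFA6 and NDUFA7, and 0 higher by edgeR. Over all genes tested 14.7% were called lower and 9.68% higher. NDUFA6, which anchors the mitochondrial acyl carrier protein to the arm, was at 180.6, 194.4 and 164.5 CPM in Tau, 46.9, 38.4 and 46.2 CPM in MPs and 193.6, 210.0 and 150.4 CPM in Con. Every MPs library was below every other library, and the log2 fold change of MPs minus Con was -2.07 ± 0.18 (SE; edgeR adjusted p = 2.75e-05). NDUFA2, a thioredoxin-like subunit of the NADH module, was at 39.1, 51.3 and 35.4 CPM in Tau, 14.1, 11.8 and 7.76 CPM in MPs and 76.7, 40.7 and 37.5 CPM in Con, with no overlap between MPs and either other group and a log2 fold change of -2.20 ± 0.31 (SE; edgeR adjusted p = 0.000628). Its estimated counts, like those of NDUFA3, NDUFA12 and NDUFAF6, are not whole numbers, as arises when an estimate divides reads between similar sequences, and the levels of these 4 genes are uncertain.

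NDUFA5 lost its call without Con 1 (-0.58), Con 2 (-1.60), MPs 1 (-1.42), MPs 2 (-1.44), MPs 3 (-1.31) or Tau 2 (-1.41), and NDUFA7 without Con 1 (-1.18) or MPs 3 (-1.23). Both also lost it with scaling by library size only (-0.88 in NDUFA5, -1.11 in NDUFA7) and with the length trend removed (-0.74 in NDUFA5, -0.93 in NDUFA7). The 6 other matrix arm genes were not called. NDUFA9 and NDUFA12 had positive log2 fold changes of 0.47 and 0.46 with MPs and Con apart, NDUFV3 was at 0.02, and NDUFAB1, the acyl carrier protein, was at -0.51, as NDUFS4 was at -0.39 and NDUFS6 at -0.48.

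Of the 20 accessory genes of the membrane arm 15 were called lower in MPs than in Con, 0 higher by edgeR and 5 not called, with a median log2 fold change of -1.17. The count was 5 lower and 2 higher with the length trend removed (median -0.57), 8 lower and 2 higher with scaling by library size only (-0.66) and 9 lower and 0 higher by edgeR without Con 1 (-0.88). Over all genes tested, 14.7% were called lower in the main fit, 15.1% with the length trend removed and 6.63% with library size scaling. Without Con 1, 1220 of 13504 genes were called lower. NDUFC1, a small subunit of this arm, was at 266.4, 299.4 and 248.5 CPM in Tau, 98.0, 84.0 and 77.2 CPM in MPs and 391.9, 313.6 and 208.4 CPM in Con, and its log2 fold change was -1.82 ± 0.22 (SE; edgeR adjusted p = 0.000211). NDUFB1 was at 202.5, 249.8 and 177.1 CPM in Tau, 70.7, 59.5 and 56.2 CPM in MPs and 181.1, 278.8 and 197.0 CPM in Con, with a log2 fold change of -1.82 ± 0.21 (SE; edgeR adjusted p = 0.000153). NDUFC2, which sits beside NDUFC1, was at 4.71, 6.32 and 9.52 CPM in Tau, 3.02, 3.04 and 2.48 CPM in MPs and 13.9, 10.9 and 9.58 CPM in Con, a log2 fold change of -2.0 ± 0.30 (SE; edgeR adjusted p = 0.000832). In these 3 genes the 3 MPs libraries lay below all 6 others.

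NDUFA13, also known as GRIM-19 for its part in cell death signalling, was at 17.2, 17.3 and 17.0 CPM in Tau, 11.8, 10.6 and 8.65 CPM in MPs and 78.3, 23.9 and 22.2 CPM in Con. Con 1 alone was 3.27 times the higher of the other Con libraries, while the MPs libraries were still the 3 lowest, and the log2 fold change was -2.0 ± 0.42 (SE; edgeR adjusted p = 0.00553). NDUFA1, a small membrane subunit encoded on the X chromosome, was at 189.8, 289.5 and 239.1 CPM in Tau, 136.2, 103.9 and 85.0 CPM in MPs and 267.9, 278.0 and 178.6 CPM in Con, a log2 fold change of -1.16 ± 0.24 (SE; edgeR adjusted p = 0.00483). NDUFB4 was at 488.1, 638.1 and 566.8 CPM in Tau, 385.9, 258.7 and 208.6 CPM in MPs and 552.0, 827.1 and 467.4 CPM in Con, with MPs lowest in every library and a log2 fold change of -1.11 ± 0.26 (SE; edgeR adjusted p = 0.00935), a call lost without MPs 3 (-0.92). NDUFB3 was at 12.5, 19.1 and 17.5 CPM in Tau, 8.34, 6.59 and 7.58 CPM in MPs and 17.6, 19.8 and 16.8 CPM in Con and had a log2 fold change of -1.27 ± 0.23 (SE; edgeR adjusted p = 0.00234). With the length trend removed the calls of NDUFA1 (-0.33), NDUFB3 (-0.58) and NDUFB4 (-0.43) were lost, and with scaling by library size only that of NDUFB4 (-0.61).

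The remaining 8 called genes of the membrane arm were NDUFA3, NDUFA10, NDUFA11, NDUFB2, NDUFB5, NDUFB6, NDUFB7 and NDUFB11, with log2 fold changes from -1.35 in NDUFB7 to -0.63 in NDUFB6. NDUFB2 and NDUFB5 kept their calls with any library left out, and NDUFB2 lost its call with the length trend removed (-0.56). NDUFA3 lost its call without Con 1 (-1.05), Con 2 (-0.89), MPs 1 (-1.24), MPs 2 (-1.36), MPs 3 (-0.81) or Tau 2 (-1.13). NDUFA10 lost it without Con 1 (-0.55), MPs 1 (-1.03), MPs 2 (-0.99), MPs 3 (-1.07) or Tau 2 (-1.05), and NDUFA11 without Con 1 (-0.71), Con 2 (-1.41), MPs 1 (-1.49), MPs 2 (-1.20) or MPs 3 (-1.15). NDUFB6 lost it without Con 1 (-0.63), Con 2 (-0.52), MPs 1 (-0.63) or MPs 3 (-0.54), NDUFB7 without Con 1 (-0.61), MPs 1 (-1.47), MPs 2 (-1.45), MPs 3 (-1.11) or Tau 2 (-1.36), and NDUFB11 without Con 1 (-0.84), Con 2 (-1.17), MPs 1 (-1.27), MPs 2 (-1.18), MPs 3 (-1.06) or Tau 2 (-1.19). The genes of this arm that were not called were NDUFA8 (0.61), NDUFB8 (0.21), NDUFB9 (-0.04), NDUFB10 (-0.64) and NDUFS5 (0.08).

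NDUFA4, named for complex I but now counted as a subunit of complex IV, was at 239.7, 344.0 and 312.5 CPM in Tau, 218.0, 173.4 and 140.0 CPM in MPs and 544.4, 448.8 and 304.6 CPM in Con. Its MPs libraries were the 3 lowest, with a log2 fold change of MPs minus Con of -1.29 ± 0.24 (SE; edgeR adjusted p = 0.00286). NDUFA4L2, its paralog, was at 2.33, 0.338 and 39.8 CPM in Tau, 1.43, 1.34 and 0.106 CPM in MPs and 7.35, 12.8 and 3.19 CPM in Con. Tau 3 held more of it than any other library and the other Tau libraries far less. The gene's log2 fold change of MPs minus Con was -3.01 ± 1.45 (SE; edgeR adjusted p = 0.16) and was not called, with every MPs library below every Con library.

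**Figure D2:**
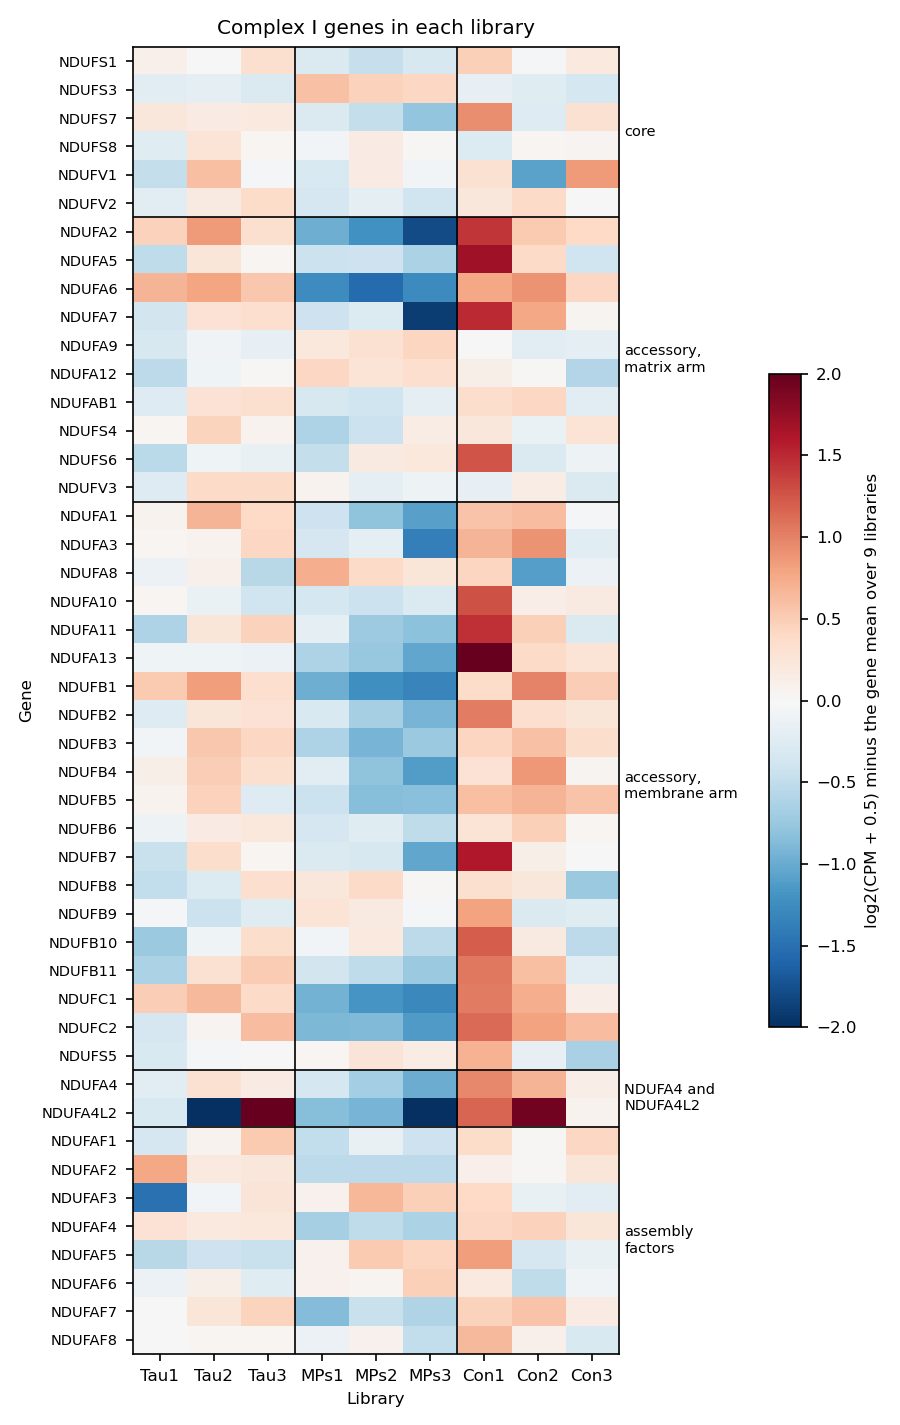
Level of each of 46 complex I genes in every library, as log2(CPM + 0.5) minus the gene's mean over 9 libraries, with genes ordered by their place in the enzyme. The MPs columns are blue over most of the membrane arm, NDUFS3 is red there, and Con 1 holds the highest CPM of 20 genes.

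Of 8 NDUFAF genes 3 were called lower in MPs than in Con, 0 higher by edgeR and 5 not called, beside 14.7% of all tested genes lower and 9.68% higher, with a median log2 fold change of -0.53. NDUFAF4, which helps to build the ubiquinone module, was at 209.1, 195.2 and 198.4 CPM in Tau, 108.4, 120.7 and 109.7 CPM in MPs and 228.0, 236.6 and 201.6 CPM in Con, a log2 fold change of -0.97 ± 0.15 (SE; edgeR adjusted p = 0.000814). NDUFAF7, a mitochondrial methyltransferase, was at 89.6, 104.7 and 120.8 CPM in Tau, 48.7, 65.3 and 58.6 CPM in MPs and 122.6, 132.7 and 100.1 CPM in Con, a log2 fold change of -1.04 ± 0.19 (SE; edgeR adjusted p = 0.00234). For both, the MPs libraries lay below all others.

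NDUFAF2, a paralog of NDUFA12 that stands in for it during assembly, was at 56.1, 37.2 and 38.2 CPM in Tau, 22.6, 22.5 and 22.5 CPM in MPs and 35.0, 33.2 and 38.5 CPM in Con, a log2 fold change of -0.66 ± 0.20 (SE; edgeR adjusted p = 0.0302). Its call was lost without Con 1 (-0.67), Con 2 (-0.71), Con 3 (-0.58), MPs 1 (-0.64), MPs 2 (-0.64) or MPs 3 (-0.64), with scaling by library size only (-0.18) and with the length trend removed, where the sign turned (0.07). It is the only member with more than 1 transcript in the file, and its minor transcript had 24 to 75 reads a library. Among the factors that were not called, NDUFAF1, of the complex that builds the proximal membrane arm, was at -0.66 with MPs and Con apart, and NDUFAF5, which hydroxylates NDUFS7, was at 0.21 on 11 to 46 reads a library. NDUFAF3, the partner of NDUFAF4, was at 0.44, NDUFAF6 at 0.34 and NDUFAF8 at -0.41.

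Assembly genes outside the NDUF name were taken from a fixed list of 13 with a row, of which 12 were tested. In MPs against Con 4 were called lower, 1 higher and 7 were not called, beside 14.7% lower and 9.68% higher over all genes tested. TMEM70, an assembly factor of ATP synthase that also acts on complex I, averaged 16.8 ± 2.61 CPM in Tau, 2.26 ± 0.755 CPM in MPs and 23.3 ± 7.99 CPM in Con (SD, n = 3), a log2 fold change of MPs minus Con of -3.36 ± 0.33 (SE; edgeR adjusted p = 5.02e-05). TMEM126B (-1.43) and TIMMDC1 (-1.10), both factors of the membrane arm, and TMEM242 (-0.80) were the others called lower. AIFM1, which takes part in the import of complex I subunits, was called higher, at 0.83 ± 0.27 (SE; edgeR adjusted p = 0.0413), while ECSIT and ACAD9, partners of NDUFAF1 and TMEM126B, were at 0.52 and 0.55 and were not called.

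**Figure D3:**
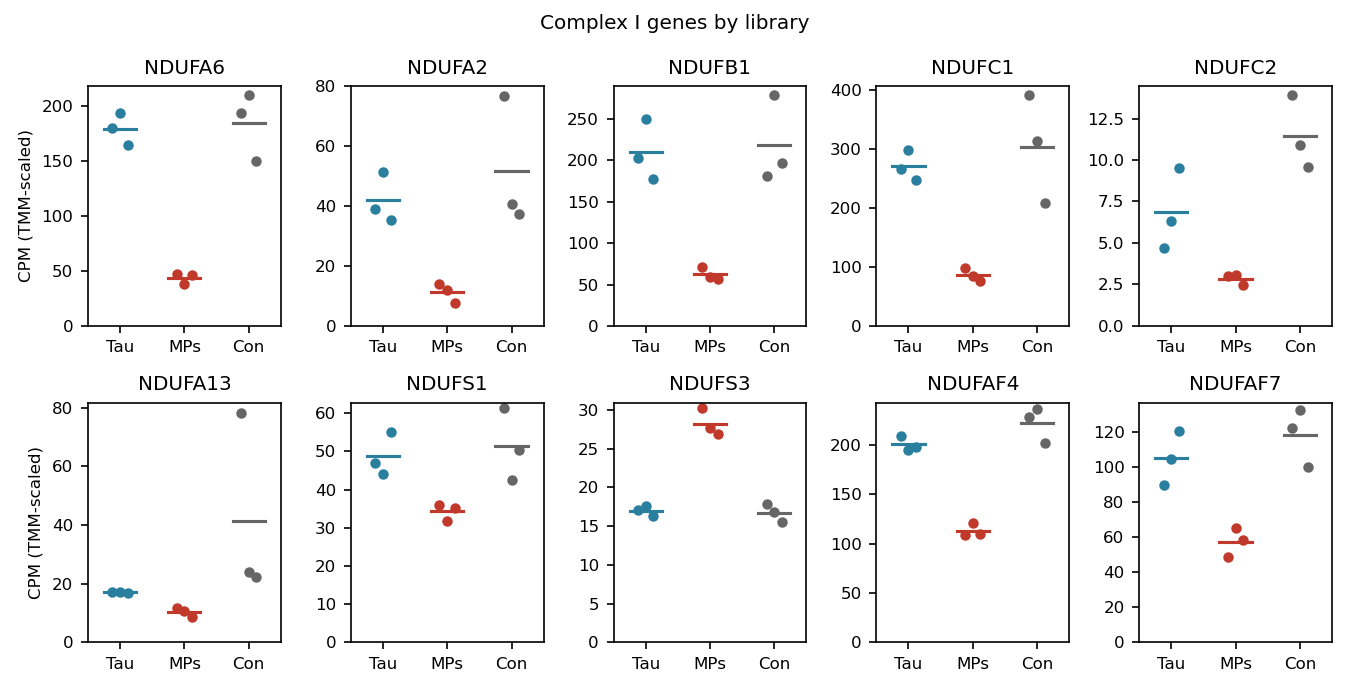
CPM of 10 complex I genes in each library of Tau, MPs and Con; points are libraries and lines are means of 3. NDUFS3 is higher in every MPs library than in any other library, and the other 9 genes are lower.

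Taurine with microplastics was next compared with microplastics alone. Of 39 subunit genes 9 were called higher in Tau than in MPs, 1 lower and 29 were not called, against 10.1% of all tested genes called higher and 4.13% lower. The median log2 fold change of the subunit genes was 0.51, and -0.02 over all genes tested. By place in the enzyme, 7 of 20 accessory genes of the membrane arm rose, 2 of 10 of the matrix arm rose, and of the 7 core genes 1 fell and 0 rose by edgeR. The Tau and MPs libraries did not overlap for 16 subunit genes on the higher side and 6 on the lower side, where all tested genes gave 18.7% and 17.4%. In the membrane arm 3 genes were called higher and 0 lower with the length trend removed, beside 9.34% and 3.48% of all genes tested. With scaling by library size only 3 were called higher and 1 lower, beside 4.55% and 18.8%.

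The genes that rose with taurine were NDUFA1, NDUFA2, NDUFA6, NDUFB1, NDUFB3, NDUFB4, NDUFB5, NDUFC1 and NDUFC2, each of which was also called lower in MPs than in Con. Both comparisons share the MPs libraries. NDUFA6 had a log2 fold change of Tau minus MPs of 2.04 ± 0.18 (SE; edgeR adjusted p = 7.51e-05), NDUFA2 of 1.90 ± 0.31 (SE; edgeR adjusted p = 0.00209), NDUFB1 of 1.75 ± 0.21 (SE; edgeR adjusted p = 0.000301) and NDUFC1 of 1.65 ± 0.22 (SE; edgeR adjusted p = 0.000583). These 4 genes kept the call in each of the 20 other fits. NDUFC2 was at 1.26 ± 0.30 (SE; edgeR adjusted p = 0.0154), NDUFA1 at 1.14 ± 0.24 (SE; edgeR adjusted p = 0.00752) and NDUFB3 at 1.12 ± 0.23 (SE; edgeR adjusted p = 0.00689). NDUFB4 and NDUFB5 rose least, by log2 0.99 and 0.83.

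NDUFS3 was the subunit gene that fell with taurine, at a log2 fold change of -0.73 ± 0.18 (SE; edgeR adjusted p = 0.0186). That call was lost without MPs 1 (-0.70), MPs 2 (-0.76) or Tau 3 (-0.70). NDUFC2 lost its call without MPs 1 (1.29), MPs 2 (1.30), MPs 3 (1.15) or Tau 3 (0.95), NDUFB4 without MPs 2 (0.91), MPs 3 (0.79) or Tau 2 (0.89), and NDUFB5 without MPs 2 (0.74), MPs 3 (0.74) or Tau 2 (0.62). With the length trend removed the calls of NDUFA1 (0.52), NDUFB3 (0.59), NDUFB4 (0.49) and NDUFB5 (0.61) were lost. With scaling by library size only those of NDUFC2 (0.81), NDUFB3 (0.68), NDUFB4 (0.55) and NDUFB5 (0.41) were. NDUFA13, among the larger falls with microplastics, was at 0.73 ± 0.41 (SE; edgeR adjusted p = 0.259) with taurine and was not called, nor was NDUFA4 at 0.75 (edgeR adjusted p = 0.0533).

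The 3 assembly factors called lower with microplastics were the 3 of 8 called higher in Tau than in MPs, and 5 were not called, beside 10.1% of all tested genes higher and 4.13% lower. NDUFAF2 had a log2 fold change of 0.96 ± 0.20 (SE; edgeR adjusted p = 0.00732), NDUFAF4 of 0.83 ± 0.15 (SE; edgeR adjusted p = 0.00311) and NDUFAF7 of 0.87 ± 0.19 (SE; edgeR adjusted p = 0.00972). All 3 calls were lost with scaling by library size only, at 0.54 in NDUFAF2, 0.40 in NDUFAF4 and 0.43 in NDUFAF7. That of NDUFAF2 was also lost with the length trend removed (0.41) and that of NDUFAF7 without MPs 1 (0.74). NDUFAF5 was at -1.28 with every Tau library below every MPs library and was not called, though library size scaling gave it a lower call, at -1.71 (edgeR adjusted p = 0.028). Of the 12 other assembly genes 4 rose and 0 fell by edgeR, beside the same shares over all genes, with TMEM70 at 2.89 ± 0.32 (SE; edgeR adjusted p = 0.000206), TMEM126B at 0.87, TIMMDC1 at 0.84 and TMEM242 at 0.82.

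**Figure D4:**
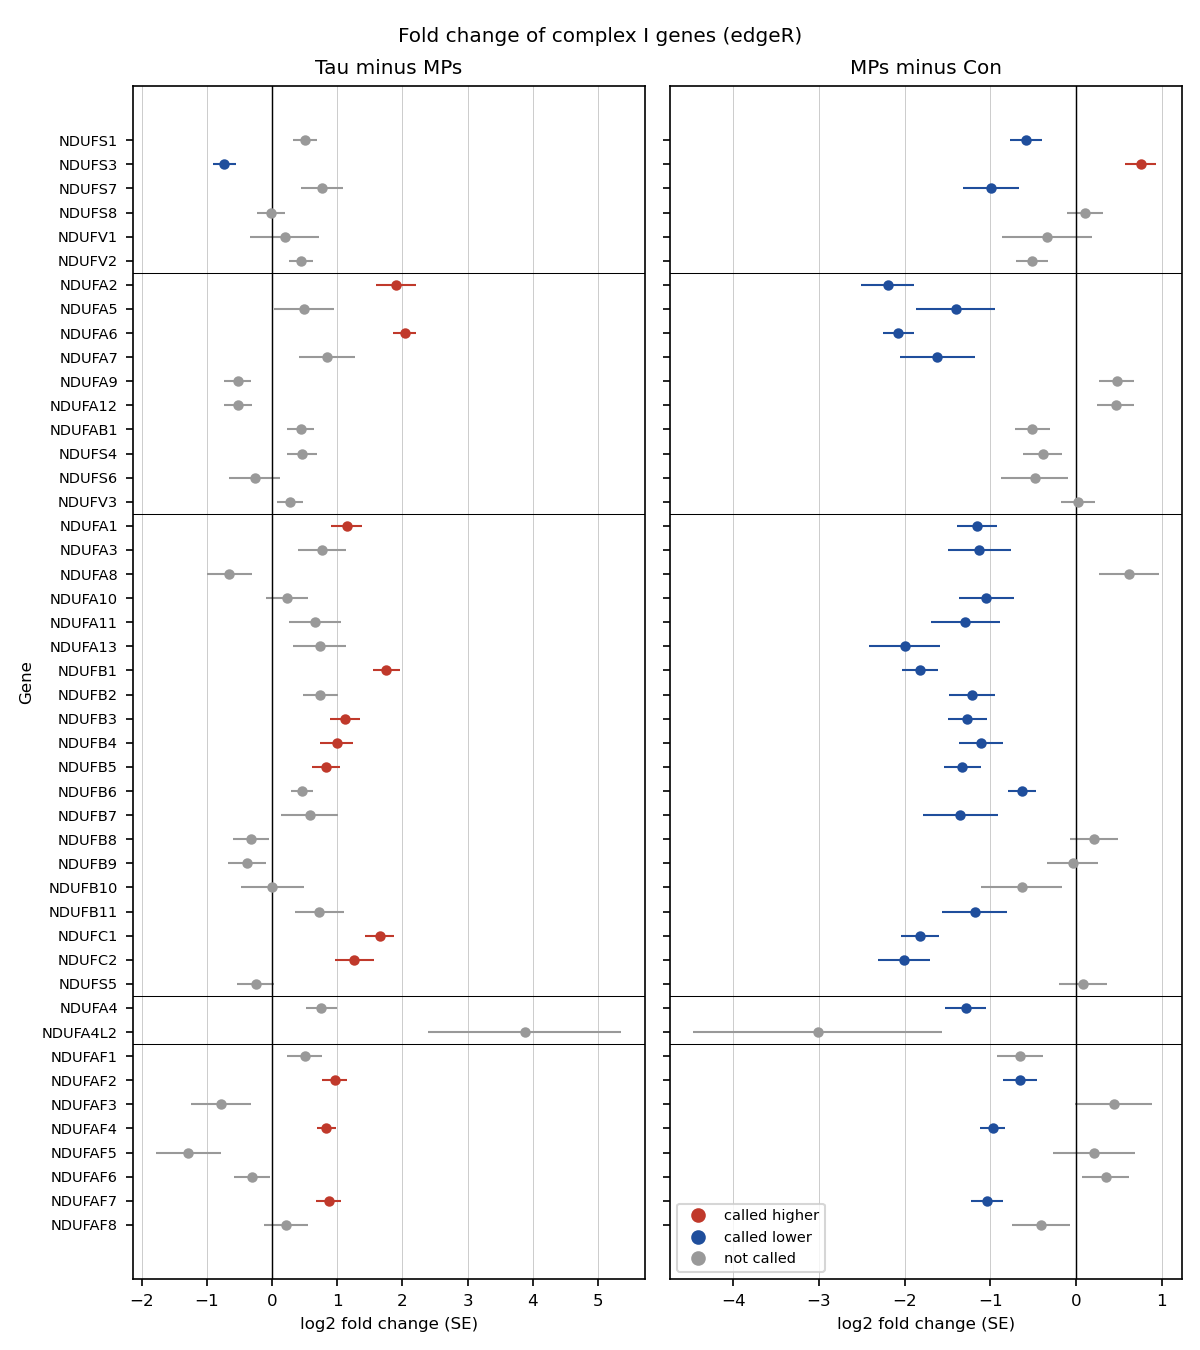
Log2 fold change with SE of 46 complex I genes in Tau minus MPs and in MPs minus Con, coloured by the edgeR call, in the order core, matrix arm, membrane arm, NDUFA4 and its paralog, and assembly factors. Of 39 subunit genes 22 are called lower in MPs minus Con and 9 higher in Tau minus MPs.

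Oocytes given microplastics and taurine were last compared with control oocytes. By edgeR 0 of 47 members were called in either direction, with 0.00757% of all genes tested called, and 753 of 13206 genes were at an unadjusted p under 0.05. The median log2 fold change of Tau minus Con was -0.17 in the subunit genes and 0.02 over all genes tested, and members ran from -1.27 in NDUFA13 to 0.86 in NDUFA4L2. For 4 subunit genes the Tau libraries lay below all Con libraries (NDUFA10, NDUFA13, NDUFB5 and NDUFC2), on a background of 4.57% of genes, and for 0 above, on a background of 4.59%. NDUFC2 was at -0.74 ± 0.29 (SE; edgeR adjusted p = 0.855). With Con 3 and Tau 3 left out together, where 623 genes were called higher and 160 lower over all genes tested, it was called at -1.16 (edgeR adjusted p = 0.0388). Con 3 and Tau 3 correlated best across their labels in these same data, so leaving them out favours differences between Tau and Con. No conclusion is drawn from that call. A p above the threshold does not show that levels in Tau and Con were alike.

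The balance between parts of the enzyme can be read inside each library, where scaling between libraries plays no part. Differences that go with transcript length can still enter it. Effective lengths ran from 515 to 3130 nt in the core genes and from 64 to 1046 nt in the accessory genes. Of reads on core and accessory genes, the core took 6.36%, 5.89% and 6.84% in the Tau libraries, 7.84%, 8.70% and 9.27% in the MPs libraries and 5.72%, 5.41% and 7.37% in the Con libraries. Wilson 95% intervals, which cover counting error only, ran from 5.72% to 7.04% over the Tau libraries, from 7.63% to 9.52% over MPs and from 5.26% to 7.58% over Con. Every MPs library was above every other on this share. In a pair chosen after its values were seen, NDUFS3 had 0.0640, 0.0587 and 0.0656 reads per read of NDUFC1 in Tau, 0.308, 0.329 and 0.348 in MPs and 0.0454, 0.0538 and 0.0748 in Con. Their effective lengths were 662 nt in NDUFS3 and 202 nt in NDUFC1. The part of length in the core share and in this pair was not tested.

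The number of members called moved with the scaling. With scaling by library size only, the median of all tested genes in MPs minus Con moved to 0.52, 30.3% of genes were called higher and 6.63% lower, and of the subunit genes 7 were called higher and 11 lower, with a median of -0.54. Over all genes 39.8% of calls were higher with TMM and 82.0% with library size. In Tau minus MPs, 5 subunit genes were then called higher and 5 lower, against 4.55% and 18.8% of all genes, with a median of 0.06 beside -0.45 for all genes. NDUFA1, NDUFA2, NDUFA6, NDUFB1 and NDUFC1 kept both calls and their directions under either scaling, as did NDUFS3, whose calls go the opposite way.

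Complex I genes are short, and their differences went with length. The median effective length was 468 nt in the members and 1970 nt in all tested genes, and 41 of 47 members lay in the shortest of 5 length classes. Over the 47 members the log2 fold change of MPs minus Con correlated with log10 length at Pearson r = 0.40 and with length at Spearman rho = 0.50, and that of Tau minus MPs at -0.34 and -0.51, as a description over genes that share the same libraries. Of 23 members under the median length 19 were called lower in MPs than in Con, and of the 24 others 6 were, beside 14.7% of all genes tested. The share among other short genes was not counted, so these counts do not set the members apart from short genes in general. With a smooth trend on length removed in each library, 9 subunit genes were called lower and 5 higher in MPs than in Con, against 15.1% and 8.72% of all genes, with a median of -0.43. In Tau minus MPs 6 were then called higher and 3 lower, against 9.34% and 3.48%, with a median of 0.09.

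**Figure D5:**
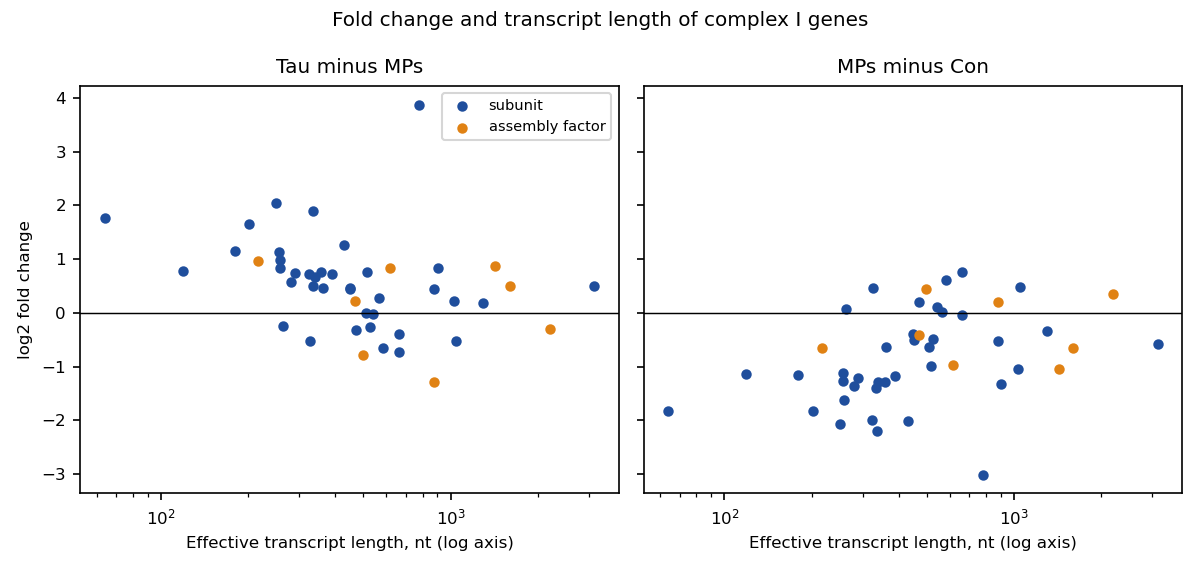
Log2 fold change of 46 complex I genes in Tau minus MPs and in MPs minus Con against effective transcript length in nt on a log axis, with subunits and assembly factors marked. Over all 47 members, the 23 under the median length had a median of -1.27 in MPs minus Con and the 24 others -0.37.

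The median coefficient of variation of a subunit gene's CPM was 19.0% in Tau, 14.5% in MPs and 30.6% in Con, beside 20.0% in Tau, 13.3% in MPs and 18.0% in Con over tested genes of at least 5 CPM. Con 1 held the highest CPM of 20 of the 47 members, and 7 subunit genes were more than 2 times higher in it than in both other Con libraries. Without Con 1, 12 subunit genes were called lower in MPs than in Con and 1 higher, with a median of -0.61. Over all genes tested 1220 of 13504 were then called lower and 495 higher, against 1935 and 1278 of 13206 in the main fit. The count of 22 was also 13 without MPs 1, 14 without MPs 2, 11 without MPs 3 and 25 with Con 3 and Tau 3 left out. Lower calls over all genes were then 1234, 1318, 1171 and 2497, in that order, and so moved in the same direction. NDUFA2, NDUFA4, NDUFA6, NDUFA13, NDUFB1, NDUFB5, NDUFC1 and NDUFC2 were called lower and NDUFS3 higher in each of the 20 other fits, as NDUFAF4 and NDUFAF7 were called lower.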

How the data were processed

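RNA of bovine metaphase II oocytes was sequenced in 9 libraries, prepared by BGI protocols per the labels. The authors deposited, per the file headers, TPM, FPKM and read counts that are estimated counts, for each transcript and library, a scaled read count (a signal, the rounded count times 1 factor per library) and group means. The scaled counts and means were not used. Aligner, counting tool, strand setting and genome build are each not given in the sources used here. These counts are not all whole (35.0% of the 22590 transcripts have one that is not), so they were summed per gene ID and rounded. Symbols came from a RefSeq gene table (ARS-UCD2.0), which named 16995 of 17852 gene IDs (95.2%) and holds 47 NDUF genes, all with a row.

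Genes that passed filterByExpr (minimum count 10, minimum total 15; 13206 genes) were fitted with edgeR 4.0.16 (R 4.3.3): TMM scaling, a robust quasi-likelihood model of the 3 groups over all 9 libraries, and Benjamini-Hochberg adjustment over all genes tested, with a call at an adjusted p under 0.05. The SE of a log2 fold change is its size over the square root of F. CPM are TMM-scaled. TPM served to compare levels between genes, and effective lengths were derived from counts of at least 20 and FPKM of at least 0.5. A count of 3 reads corresponds to 0.132 to 0.142 CPM, and intervals cover counting error only. The fit was tested on simulated data. Alternatives were other scalings and filters, DESeq2 1.42.0, limma 3.58.1, a length correction, a replicate block and libraries left out.

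Values in every library are given for the 7 core subunits, NDUFA4, the 6 subunits with the largest called change in each direction in MPs against Con, up to 8 with opposite calls in both comparisons and each NDUFAF gene called. NDUFA4L2 was added after its values were seen. The members and lists were chosen with earlier results of these data known. Promoter motifs were planned and not run. The values of 1 member are not reported or drawn here; it stays in all counts, sums and medians.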

Additional observations from a re-analysis of the deposited data

How the results depend on the processing

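Members that changed sign with a setting include the called NDUFAF2 and others that were not called; the cause was not tested. The count of 22 subunit genes lower in MPs than in Con was 11 with library size scaling, 14 with a replicate block, 9 with the length trend removed and 13 with each transcript tested apart, and 11 to 24 with a library left out. Over all genes tested the count of 1935 lower was 876, 1554, 1852 and 1540, in the same order, and 1171 to 2142 with a library left out. The 1 subunit gene higher was 7 with library size scaling, 5 with the length trend removed and 0 with a minimum absolute log2 fold change of 1, where 1 of 3 assembly factors remained called. The subunit median of -1.05 was -0.54 with library size scaling, -0.43 with the length trend removed and -1.22 to -0.61 with a library left out. In Tau against MPs, the 9 subunit genes higher were 5 with library size scaling. The 1 lower was 5 with library size scaling, 3 with the length trend removed, 3 with Con 3 and Tau 3 left out, 0 with a minimum absolute log2 fold change of 1 and 0 to 1 with a library left out. The 3 assembly factors called higher all lost the call with library size scaling, where 1 other, NDUFAF5, was called lower, and 0 were called with a minimum absolute log2 fold change of 1. The subunit median of 0.51 was 0.06 with library size scaling and 0.09 with the length trend removed. In Tau against Con 1 subunit gene was lower with Con 3 and Tau 3 left out, the libraries that correlated best across their labels. Same-numbered libraries did not deviate together throughout (r of -0.147 to 0.017 for Tau with MPs, -0.441 to -0.074 for Tau with Con and 0.05 to 0.261 for MPs with Con), so the numbers were not taken as pairs.

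In MPs against Con, library size scaling turned NDUFAF8 to 0.091, NDUFB9 to 0.46, NDUFS4 to 0.085, NDUFS6 to 0.025 and NDUFV1 to 0.10, and removal of the length trend turned NDUFAF2 to 0.067, NDUFAF8 to 0.074, NDUFB9 to 0.32 and NDUFS4 to 0.10. NDUFB9 was 0.009 with the 5 CPM filter, 0.057 with limma-voom and 0.038 with the replicate block. NDUFV3 was -0.011 with DESeq2 size factors and with its Wald test. With Con 3 and Tau 3 left out NDUFB8 was -0.041, NDUFS5 -0.16, NDUFV1 0.25 and NDUFV3 -0.05. In Tau against MPs, library size scaling turned NDUFA10 to -0.20, NDUFAF8 to -0.21, NDUFB10 to -0.45, NDUFV1 to -0.23, NDUFV2 to -0.001 and NDUFV3 to -0.17, and removal of the length trend turned NDUFAF8 to -0.11, NDUFB10 to -0.31 and NDUFV3 to -0.028. NDUFB10 was also -0.005 with no filter, -0.056 with limma-voom, -0.015 with only the 2 groups compared, -0.34 with Con 3 and Tau 3 left out and -0.001 with each transcript tested apart.

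With a library left out, MPs minus Con ranged from -0.083 to 0.88 in NDUFAF5, -0.97 to 0.03 in NDUFB10, -0.041 to 0.40 in NDUFB8, -0.24 to 0.42 in NDUFB9, -0.16 to 0.54 in NDUFS5, -0.76 to 0.21 in NDUFS6, -0.78 to 0.25 in NDUFV1 and -0.05 to 0.16 in NDUFV3. Tau minus MPs ranged from -0.33 to 0.28 in NDUFB10, -0.15 to 0.11 in NDUFS8 and -0.23 to 0.46 in NDUFV1. Depth limits NDUFV1 (14 to 88 reads a library), NDUFAF5 (11 to 46) and NDUFA4L2 (3 to 727).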
